A study of Phyllotreta striolata with 15 samples.

Results

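The genes described here are 300 genes of the striped flea beetle, Phyllotreta striolata, that were high in larvae and in adults of both sexes and low in eggs and pupae. They were chosen by the authors' mean TPM per group (a length-scaled share of a library's transcripts) out of the 11862 genes in the deposited tables. A gene qualified when its lowest mean among larvae, male adults and female adults was at least 5 TPM, when these 3 means were under 3-fold apart, and when the lowest of them was at least 3 times the higher of the egg and pupal means. These conditions were met by 351 genes, and the 300 with the largest ratio of the lowest high mean to the highest low mean, each with 0.1 added, were kept. The difference between larvae and adults on one side and eggs and pupae on the other is therefore what chose the genes, and its values are given as a description with no test.

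The series holds 15 RNA libraries from whole bodies, 3 for each of 5 groups: egg, larva, pupa, adult male and adult female. The labels name no genotype, strain, treatment, age, food plant or number of animals per library. Total RNA was extracted with TRIzol and made into libraries with an Illumina TruSeq kit, per the labels' protocols. Replicates are described as biological in the design text. Whether they were reared or collected separately is not stated, so a p-value here reflects only how these libraries vary, part of which may be technical.

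The striped flea beetle is a leaf beetle whose larvae live on the roots of crucifers and whose adults chew holes in the leaves. Eggs and pupae take no food. In beetles, feeding stages run a gut that makes proteases, lipases and plant cell wall enzymes, takes up sugars and amino acids and detoxifies plant compounds, and they use muscle and sense organs to move and find food. The deposited files identify genes by protein accession and do not pair them with names or sequences, so which of these functions the 300 genes serve was not analysed here, and the name "feeding-stage genes" rests on the stages alone. Near-identical gene copies cannot be recognised either, and their counts may be split or shared.

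Library totals ran from 16509113 counts (larva replicate 1) to 32598781 (pupa replicate 3). All 300 genes passed the filter on low counts, which they could do through larvae and adults alone. The column names of the larval and adult libraries share 1 prefix, while egg and pupal libraries carry 1 other prefix each. These prefixes cannot be told apart from the difference between high and low groups, nor from that between eggs and pupae. Several libraries differed from the other 2 of their group across the 11440 genes tested. At least 4-fold above them lay 1093 genes in larva replicate 1 and 609 in egg replicate 2, of which 20 and 7 were among the 300. At least 4-fold below them lay 838 genes in larva replicate 3, 772 in larva replicate 2 and 383 in male adult replicate 2, of which 44, 3 and 132 were among the 300.

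The 300 genes spanned a wide range of levels. The lowest of the 3 high means had a median of 45.9 TPM over the genes and ran from 5.004 to 1899.7 TPM. Group medians of the authors' mean TPM were 59.9 in larvae, 53.7 in male adults and 53.8 in female adults, against 2.37 in pupae and 0.463 in eggs. The 3 high means were a median of 1.69-fold apart. Larvae had the highest mean of all groups for 145 genes, male adults for 81 and female adults for 74. In whole bodies, fewer cells of a type and less RNA per cell cannot be told apart.

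As a share of library counts, the 300 genes took 7.78%, 6.15% and 4.99% in larva replicates 1, 2 and 3. In male adult replicates 1, 2 and 3 the share was 6.55%, 2.41% and 4.53%. Female adult libraries were closer together, at 3.59%, 4.18% and 3.88%. Pupal libraries gave 0.282% to 0.299% and egg libraries 0.125% to 0.153%. No larval or adult library overlapped with an egg or pupal one in this share, but the 3 male libraries spanned more than the distance between the larval mean of 6.31% ± 1.41 and the female adult mean of 3.89% ± 0.297 (SD, n = 3 each).

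The most abundant of the 300 genes by its lowest high mean was CAG9861122.1, with 1899.7 TPM in larvae, 2505 TPM in male adults and 2993 TPM in female adults. Its CPM (a library's counts scaled to a common total, with edgeR's TMM factors) was 9918, 995 and 1246 in larva replicates 1, 2 and 3, and 7258, 79.4 and 2883 in male adult replicates 1, 2 and 3. Female adult libraries gave 2481, 3881 and 1996 CPM, pupal libraries 2.498, 2.55 and 0.330 CPM, and egg libraries 0, 0 and 0.0703 CPM. One larval library stood far above the other two and one male library far below the other two, so the similar group means of this gene hide libraries that differ widely.

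CAG9863992.1, next but one by this measure, showed the same gap in male adults, with 2740, 18.6 and 1157 CPM in male adult replicates 1, 2 and 3. It was at 3668, 4008 and 2314 CPM in larvae and at 880.0, 1348 and 613 CPM in female adults. Pupal libraries gave 2.91, 4.56 and 2.64 CPM and egg libraries 3.13, 0.602 and 0.950 CPM. Male adult replicate 2 lay closer to the pupal and egg libraries than to any other male or female library.

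The other 2 genes among the top 4 by this measure did not show that gap. CAG9857631.1 was at 2772, 1268 and 1681 CPM in male adult replicates 1, 2 and 3, at 1985, 2311 and 1466 CPM in larvae and at 515, 606 and 1771 CPM in female adults. CAG9855124.1 was at 2522, 2584 and 2782 CPM in male adults, at 3663, 4663 and 6734 CPM in larvae and at 1373, 1149 and 2051 CPM in female adults. Both were also present in pupae, at 272 to 289 CPM and 304 to 336 CPM, and in eggs, at 28.7 to 38.1 CPM and 84.0 to 163 CPM. These abundant genes thus kept a clear level in every stage, below that of any larval or adult library.

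The sharpest contrast between stages by the rule's own ratio was that of CAG9853607.1, which had no count in any egg library and 2, 9 and 0 counts in pupa replicates 1, 2 and 3. It reached 1040, 968 and 564 CPM in larvae, 546, 134 and 549 CPM in male adults and 415, 287 and 262 CPM in female adults. CAG9861122.1 came next by this ratio. It was followed by CAG9857193.1, with 0.739 to 0.822 CPM in eggs and 0.812 to 1.49 CPM in pupae. It was at 3564, 3820 and 735 CPM in larvae, 3269, 51.4 and 1265 CPM in male adults and 736, 915 and 2174 CPM in female adults. CAG9861854.1 ranked after it and had 2 counts over all egg libraries and 4 over all pupal libraries, and 63.1 to 204 CPM in every larval and adult library but male adult replicate 2, where it was at 39.6 CPM.

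Over the whole set, 29 genes had no count in eggs, 7 had none in pupae and 3 had none in either. For 232 of the 300 genes (77.3%) every larval and adult library lay above every egg and pupal library. Among all genes tested 6.92% did, and since the rule used this contrast, nothing is read from the difference. In 60 of the 68 genes that overlapped, the lowest larval or adult library was male adult replicate 2. Without that library, 290 of the 300 genes did not overlap, beside 8.57% of all genes tested.

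**Figure D1:**
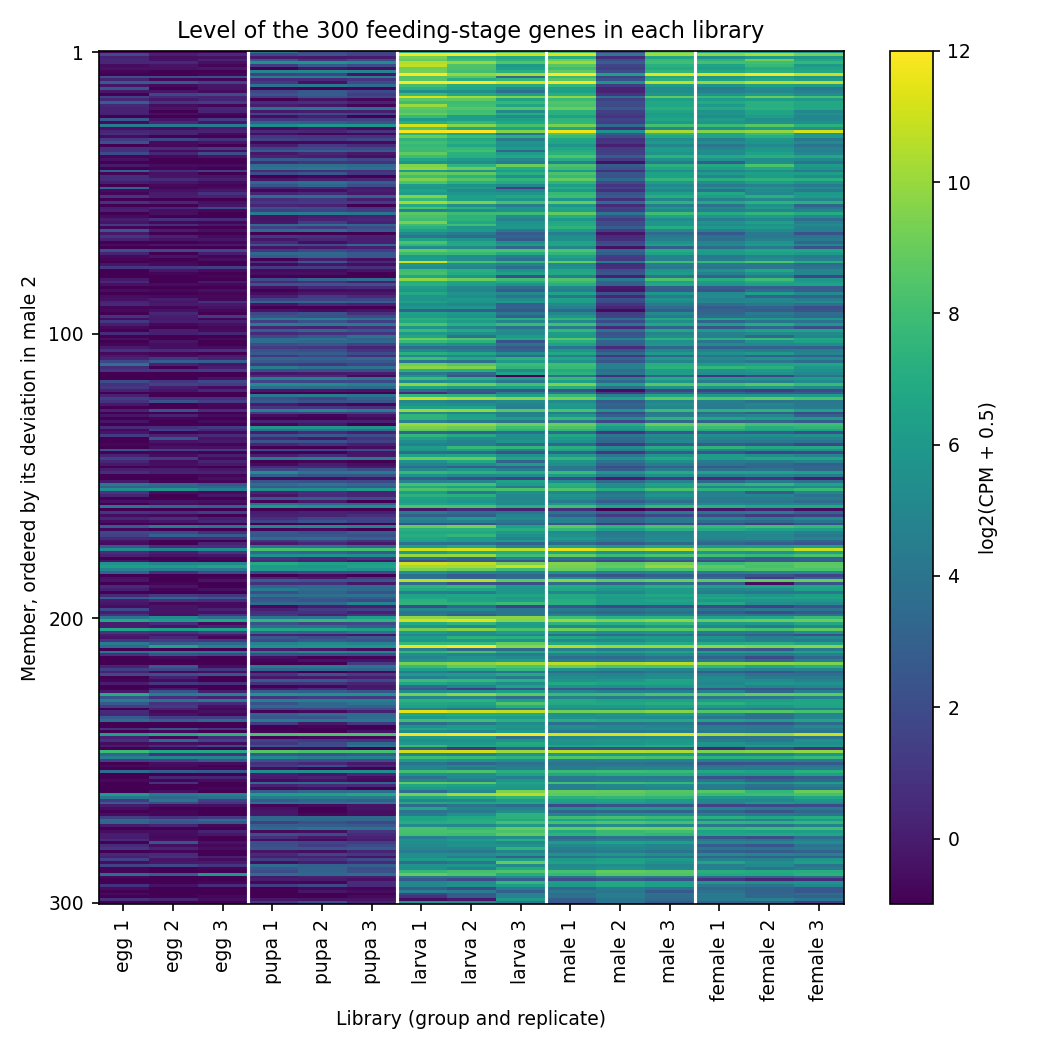
Level of the 300 genes (rows, ordered by how far male adult replicate 2 lay below or above the mean of male 1 and 3) in the 15 libraries (columns), as log2(CPM + 0.5) in colour; white lines separate the groups. The top rows are bright in male 1 and 3 and dark in male 2, and the bottom rows are similar in all male libraries.

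At the edge of the limit on number, CAG9857049.1 and CAG9862318.1 were kept with ratios of 3.73 and 3.70, and CAG9863724.1 and CAG9857766.1 fell outside with 3.69 and 3.66. The lowest high mean was 5.004 and 5.53 TPM in CAG9858622.1 and CAG9854055.1, just inside, and 4.92 and 4.44 TPM in CAG9860871.1 and CAG9854074.1, just outside. The high means of CAG9859350.1 and CAG9858208.1, both inside, were 2.9996-fold and 2.99-fold apart, and those of CAG9854841.1 and CAG9860542.1, outside, 3.004-fold and 3.02-fold.

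Membership was checked with each library's TPM left out of its group mean in turn. Between 286 and 300 of the 300 genes still met the conditions when an egg, pupal or female adult library, larva replicate 1 or 2, or male adult replicate 2 or 3 was left out. The number was 255 without larva replicate 3 and 226 without male adult replicate 1. Without larva replicate 1 and male adult replicate 2 together it was 278. Membership depended more on the scale. With the same limits applied to group means of CPM scaled by edgeR's TMM factors, 171 of the 300 genes met the conditions.

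Male adult replicate 2 divided the 300 genes. A total of 132 of them (44.0%) were at least 4-fold below the mean of the other 2 male libraries in it, on the log2(CPM + 0.5) scale, against 3.35% of all genes tested. These are called the lower set below. A further 131 genes lay less than 2-fold below that mean, or above it, and are called the near set, and the 37 remaining genes lay between. The median difference was -4.29 on the log2 scale in the lower set, -0.11 in the near set and 0.00 over all genes tested. A comparison within 1 group of 3 libraries cannot be tested, and these sets were defined after the values were seen, so what follows on them is a description with no test.

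Of the members named so far, CAG9861122.1 was 57.2-fold lower in male adult replicate 2 than the mean of the other male libraries on that scale, CAG9863992.1 93.1-fold and CAG9857193.1 39.2-fold. CAG9853607.1 and CAG9861854.1 were 4.07-fold and 4.75-fold lower and so belong to the lower set only just. CAG9857631.1 and CAG9855124.1 belong to the near set, at 1.70-fold and 1.03-fold lower. Of the 50 genes with the largest ratio between stages, 33 were in the lower set and 14 in the near set. The library had 19969953 counts, within the range of 18015995 to 23367276 of the male adult libraries, and a TMM factor of 1.06, against 0.960 and 1.03 in the other two. Of the 300 genes, 283 still reached 1 CPM in it.

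**Figure D2:**
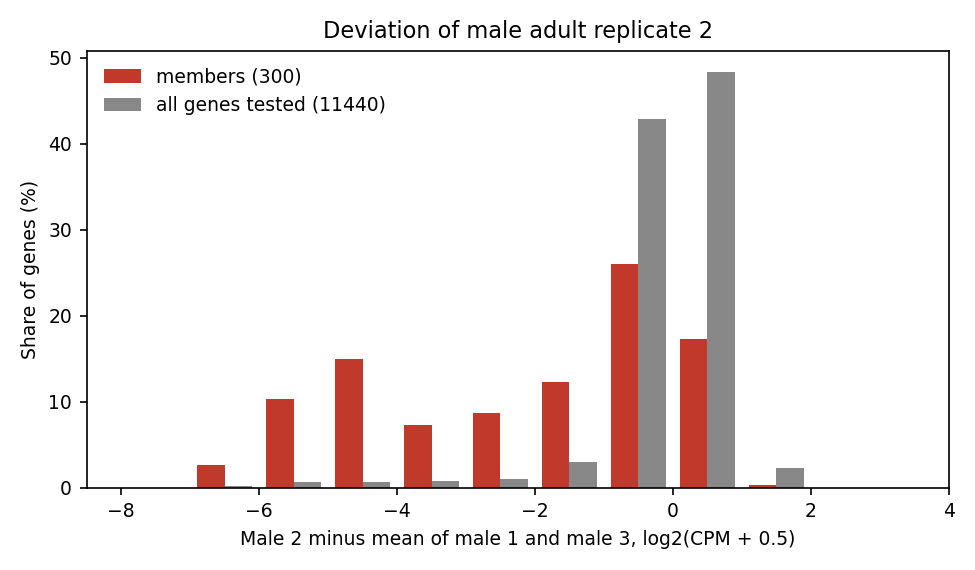
Share of genes (%, y axis) by the difference of male adult replicate 2 from the mean of male adult replicates 1 and 3 (x axis, log2(CPM + 0.5), bins of 1), for the 300 members in red and all 11440 genes tested in grey. The members form a broad group between -7 and -2 beside a peak around 0, whereas nearly all genes tested lie around 0.

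The lower and the near set also differed in libraries that did not define them. In larva replicate 3, genes of the lower set had a median difference from the mean of the other 2 larval libraries of -1.42 on the log2 scale, with quartiles of -2.03 and -0.72. The near set had a median of 0.03 and quartiles of -0.70 and 0.83. At least 2-fold below the other 2 larval libraries in larva replicate 3 were 87 of 132 genes of the lower set (65.9%) and 23 of 131 of the near set (17.6%). Larva replicate 1 lay on the other side, with a median of 1.23 for the lower set and -0.03 for the near set. Larva replicate 2 had medians of 0.13 and -0.06. Over all genes tested the medians were 0.10 in larva replicate 1 and -0.10 in larva replicate 3. Each library is set against the other 2 of its group, so part of the rise in larva replicate 1 follows from the fall in larva replicate 3. The genes of the lower set thus tended to be low in larva replicate 3 as well.

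Counted over the 300 genes, 169 were at least 2-fold below the rest of their group in male adult replicate 2 and 126 in larva replicate 3. Both lists held 103 genes, which is 60.9% of the first and 81.7% of the second. Over all genes tested, 337 genes were in both lists, 46.3% of the 728 lower in male adult replicate 2 and 18.1% of the 1860 lower in larva replicate 3. Across the 300 genes the 2 differences had a Pearson's r of 0.51 and a Spearman's rho of 0.57, and across all 11440 genes the values were 0.05 and -0.003. Points of these correlations share libraries and are not independent replicates.

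**Figure D3:**
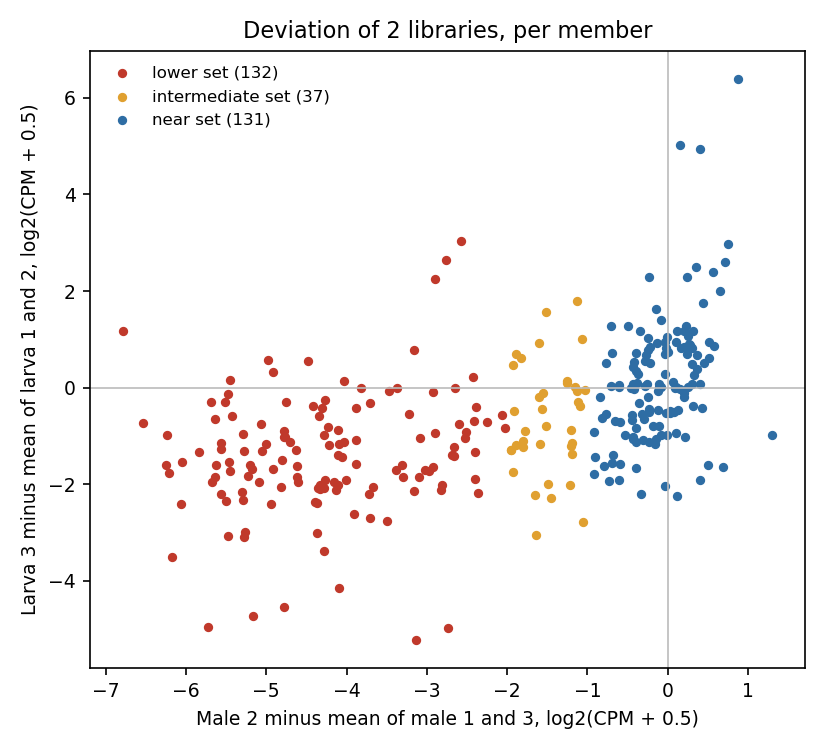
Each point is 1 of the 300 genes, placed by its difference in male adult replicate 2 from male 1 and 3 (x axis) and in larva replicate 3 from larva 1 and 2 (y axis), both in log2(CPM + 0.5). Most points of the lower set (red) lie below 0 on the y axis, while those of the near set (blue) spread around 0.

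In share of library counts, the lower set took 5.03%, 3.03% and 1.84% in larva replicates 1, 2 and 3, and 3.84%, 0.133% and 1.96% in male adult replicates 1, 2 and 3. Female adult libraries gave 1.68%, 2.43% and 1.67% for this set. For the near set the shares were 2.42%, 2.78% and 2.92% in larvae, 2.37%, 2.17% and 2.32% in male adults and 1.65%, 1.52% and 1.997% in female adults. The highest larval or adult library was 37.9 times the lowest for the lower set and 1.92 times for the near set. Without male adult replicate 2 the ratio was 3.01 for the lower set and 1.92 for the near set. All male libraries entered the definition of the sets, but the highest and lowest libraries here were larval and female adult ones for both sets. The larger ratio of the lower set rested on larva replicate 1. Without it, larval and female adult libraries ran from 1.67% to 3.03% for the lower set and from 1.52% to 2.92% for the near set. These ratios also hold the difference between larvae and female adults, so no greater unevenness of the lower set is read from them.

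In pupae the lower set took 0.0562% to 0.0676% of counts and in eggs 0.0105% to 0.0168%. The corresponding shares of the near set were 0.196% to 0.214% and 0.107% to 0.125%. The share of the lower set in male adult replicate 2, 0.133%, was therefore nearer to its share in any pupal library than to that in any other larval or adult library.

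**Figure D4:**
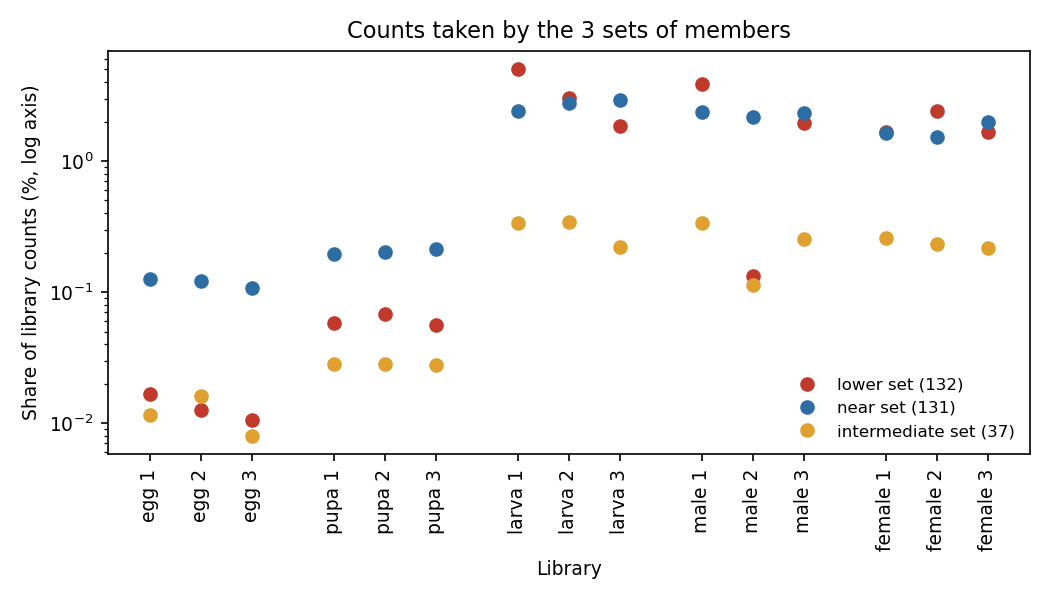
Share of library counts (%, log axis) taken by the lower set (red), the near set (blue) and the 37 genes between them (yellow) in each of the 15 libraries (x axis). In male 2 the lower set falls to 0.133% while the near set stays at 2.17%.

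Spread between replicates was larger for the 300 genes than over all genes in male adults, larvae, pupae and female adults, and similar in eggs. The widest gaps were in male adults and larvae. The median standard deviation of log2(CPM + 0.5) was 0.93 in male adults against 0.25 over all genes tested, and 0.69 in larvae against 0.40. The gap was smaller in pupae (0.31 against 0.19), female adults (0.37 against 0.29) and eggs (0.36 against 0.35). The median CPM of the 300 genes was 0.25 to 0.49 in egg libraries and 2.04 to 2.61 in pupal ones. Counting error and the added 0.5 therefore weigh on the spread in these stages. The widest gap among larval libraries was that of CAG9861740.1, with 0.175, 0.412 and 65.5 CPM in larva replicates 1, 2 and 3. Its larval mean therefore came from 1 library, while it was at 6.42 to 15.9 CPM in male adults and 16.9 to 25.04 CPM in female adults. CAG9861010.1 ran the other way, with 48.2, 4.58 and 0 CPM in larva replicates 1, 2 and 3. CAG9863777.1 had the narrowest range in larvae, at 137 to 145 CPM, with 83.6 to 192 CPM in male adults and 74.4 to 129 CPM in female adults, and CAG9861933.1 was at 93.6 to 100.1 CPM in larvae.

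Pupae and eggs were compared because the rule set the same ceiling for both and did not set one against the other. Their column names carry different prefixes, so stage and prefix cannot be told apart in this comparison. Of the 300 genes, 150 were higher in pupae than in eggs and 8 were lower (edgeR's quasi-likelihood test, at least 2-fold, with a p under 0.05 after Benjamini-Hochberg adjustment across the 11440 genes). That is 50% and 2.67% of the 300, beside 34.7% and 25.1% of all genes tested. The median log2 change from eggs to pupae was 1.94 over the 300 genes and 0.30 over all genes, and 1.92 for the 300 when the 28 genes with no count in one stage were set at their lower bound and 5 genes at or under 3 counts in both stages were left out. Genes low in eggs and pupae could enter this test through larvae and adults. When only egg and pupal libraries entered the filter and the fit, 227 of the 300 genes were tested, of which 120 (52.9%) were higher and 5 (2.2%) lower in pupae, beside 32.9% and 29.5% of all genes tested in that fit. In 167 of the 300 genes every pupal library lay above every egg library, and in 9 every pupal library lay below, against 44.3% and 34.4% of all genes tested. By set, 64 of 132 genes of the lower set and 68 of 131 of the near set were called higher in pupae.

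CAG9859923.1 and CAG9860115.1 are named for their fitted changes, which for genes without a count in eggs give no order of rises. CAG9859923.1 went from no count in any egg library to 10.2, 16.0 and 13.8 CPM in pupa replicates 1, 2 and 3. This is at least 367-fold higher (adjusted p = 5.85e-07, edgeR), as a bound against 3 counts summed over the egg libraries, which covers counting error only. It was at 212 to 473 CPM in larvae, 453 to 636 CPM in male adults and 208 to 260 CPM in female adults, so the pupal level was well under that of every larval and adult library. CAG9860115.1 had no count in eggs and was at 2.91, 5.26 and 14.6 CPM in pupae, at least 219-fold higher (adjusted p = 0.000549, edgeR).

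CAG9865217.1 was among the 8 genes lower in pupae, with 1.27, 4.75 and 1.58 CPM in egg replicates 1, 2 and 3 and no count in any pupal library. It was at least 72.6-fold lower in pupae (adjusted p = 1.75e-05, edgeR). CAH1141795.1 had 46 counts over the egg libraries and 2 over the pupal ones, a ratio of 23.0 with an exact 95% counting interval from 6.01 to 195 (adjusted p = 0.037, edgeR). Its call was lost without egg replicate 1 (adjusted p = 0.124), without pupa replicate 1 (0.0991) and without pupa replicate 3 (0.101), and its adjusted p ranged from 0.00356 to 0.124 over 20 alternatives.

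Of the 150 genes higher in pupae, 120 were called in every fit that left out 1 library, and of the 8 lower, 3 were. The count of higher genes ran from 131 to 154 in these fits, beside 30.3% to 36.1% of all genes. Without egg replicate 2 the counts were 134 higher and 10 lower, beside 33.1% and 28.4% of all genes. The 8 became 14 without male adult replicate 2, 5 without egg replicate 1 and 4 without pupa replicate 1. The shares of all genes called lower were then 28%, 24.5% and 23.5%. Relative to the median of all genes the members stood 1.64 higher on the log2 scale both with TMM and with library size alone, although the median of all genes itself moved from 0.30 to -0.04.

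**Figure D5:**
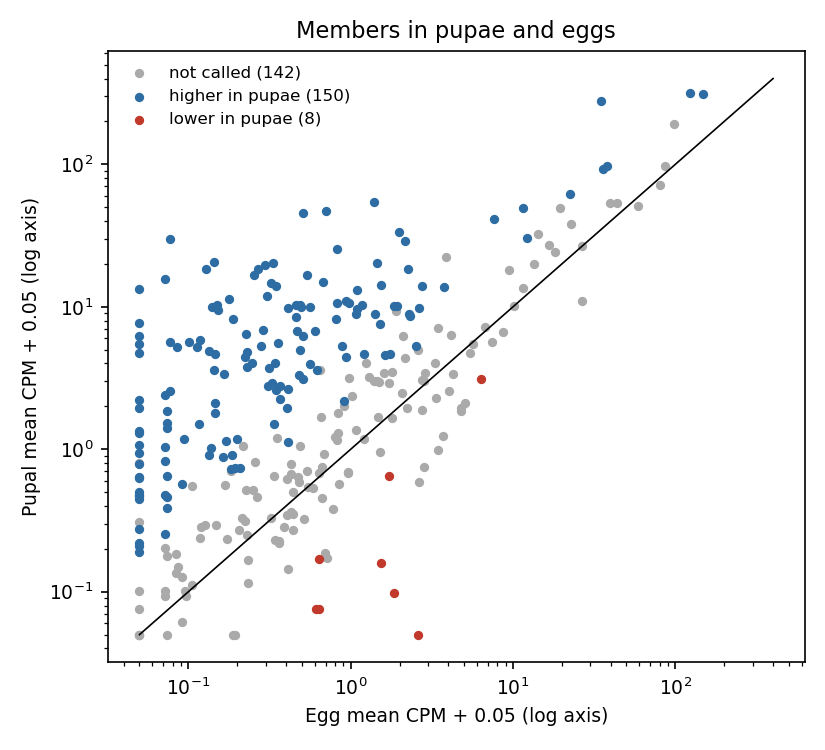
Mean CPM with 0.05 added in eggs (x axis, log) and pupae (y axis, log) for the 300 genes, with the line of equal levels. Blue points (150) were called higher in pupae, red points (8) lower, and grey points (142) were not called.

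Male and female adults were compared next. Since the rule kept the means of the sexes under 3-fold apart, the counts are limited by the choice of genes and nothing is read from them. None of the 300 genes was called higher in females by edgeR, and 0 had an unadjusted p under 0.05 in that direction by edgeR or by DESeq2. Higher in males were 9 genes by edgeR, or 3%, beside 11.7% of all genes called higher in females and 15.9% called higher in males. All 9 were in the near set. Nothing is read from this split, because the male libraries that defined the sets also contribute to the spread used in this test. None of the 9 was called in every fit that left out 1 library. The number of members called higher in males was 5 without male adult replicate 2, 1 without female adult replicate 1 and 0 without female adult replicate 2. Beside these, 10.6%, 9.57% and 8.04% of all genes were called higher in males. The number was 15 each without egg replicate 1, egg replicate 3 or female adult replicate 3, beside 16.8%, 16.9% and 15.3%. The median log2 difference, female minus male, was -0.54 over the 300 genes and -0.23 over all genes, and with library size alone it was -0.19 and 0.09. The members' median rested on single male libraries, at -0.06 against -0.11 over all genes without male adult replicate 1 and at -0.74 against -0.11 without male adult replicate 2.

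CAG9855017.1 had the largest fitted difference between the sexes among called genes whose libraries did not overlap, at 3.70, 5.93 and 4.29 CPM in male adult replicates 1, 2 and 3 and at 1.46, 0.809 and 1.15 CPM in female adults. CAG9858087.1 was at 32.3, 38.4 and 28.8 CPM in male adults and at 6.82, 4.93 and 14.7 CPM in female adults. Female minus male, the log2 differences were -2.02 (SE 0.47) and -1.91 (SE 0.60), and in both genes the highest female library lay below the lowest male one. Both calls were lost without male adult replicate 2 and without female adult replicate 2, and that of CAG9858087.1 also without male adult replicate 1, without female adult replicate 1 and with library size alone.

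Larvae were set against the average of the male and female coefficients, which the rule also held under 3-fold apart in mean TPM. By edgeR, 56 of the 300 genes (18.7%) were called higher in larvae and 0 lower, beside 12.7% and 11.3% of all genes. With library size alone, 19 (6.33%) were called higher in larvae, beside 7.14% of all genes, so the members' share was then below that of all genes. The rule limits these counts too, and nothing is read from them. In the lower direction 1 gene had an unadjusted p under 0.05 by edgeR and 0 by DESeq2. Of the 56 genes 37 were in the near set and 10 in the lower set. The male libraries that defined the sets also entered this test, so nothing is read from that split either. In the fits that left out 1 library the number called higher in larvae ran from 32 to 77. Without larva replicate 2 it was 32, or 10.7%, beside 10.7% of all genes, so the shares did not differ. It was 77, or 25.7%, without egg replicate 2 and without male adult replicate 2, beside 15% and 13.5% of all genes. Without larva replicate 1 it was 44, or 14.7%, beside 11.6%. Of the 56 genes, 23 were called in every such fit. Lower in larvae were 4 genes (1.33%) without larva replicate 3, beside 12.3% of all genes. The median log2 difference, larvae minus adults, was 0.95 over the 300 genes and 0.00 over all genes, and with library size alone it was 0.40 and -0.53.

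CAG9858208.1 was at 951, 758 and 837 CPM in larva replicates 1, 2 and 3, at 267, 160 and 171 CPM in male adults and at 90.6, 109 and 220 CPM in female adults, a log2 difference of 2.35 (SE 0.51). In the authors' mean TPM the same gene was at 561 in larvae, 188 in male adults and 192 in female adults, a smaller ratio than on the TMM scale. CAG9862028.1 was at 52.5, 31.7 and 20.4 CPM in larvae, at 5.90, 15.04 and 5.71 CPM in male adults and at 7.90, 7.24 and 2.06 CPM in female adults, a log2 difference of 2.29 (SE 0.59). In both genes every larval library lay above every adult one, and both calls held in all 21 alternatives.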

How the data were processed

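Per the submitters' processing notes, fastp, HISAT2 and featureCounts were used. For versions, strand setting and genome build, nothing is given in the sources used here. Read counts were deposited by the authors for 11862 genes in 15 libraries, not normalized, together with TPM averaged by the authors over the 3 libraries of each group, which gives no spread. Another deposited table, of identifiers without values, was not used. Columns were matched to samples through library names, and groups come from sample titles.

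The members and named genes were chosen with earlier results of these data known. Counts were filtered with edgeR's filterByExpr (11440 genes left, 422 dropped) and scaled by TMM (factors from 0.694 to 1.29). Comparisons used the quasi-likelihood test of edgeR 4.0.16 in R 4.3.3, with a robust fit and 5 groups in one model, and a call needed an adjusted p under 0.05 and at least 2-fold. Standard errors were taken from the log2 change and its F statistic. TPM per library was obtained by dividing the authors' mean TPM over a group's libraries in proportion to scaled counts. Relative gene length was the ratio of scaled counts to TPM. Rebuilt larval, male and female adult means lay within 5% of the authors' for 100% of members and 87.4% of all genes. Egg and pupal means were not checked in this way, and the lengths came from the same TPM, so close values are partly built in. The counts of genes meeting the rule without a library run over all genes. The pipeline was tested on simulated counts. Alternatives were DESeq2 1.42.0, other scalings, no filter, other folds, a replicate block and leaving out libraries.

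Named genes were the 4 with the highest lowest high mean, the 4 with the largest stage ratio, those nearest each threshold, up to 2 called in each direction per comparison with no overlap of libraries, and the 2 each with the widest and narrowest larval range.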

Additional observations from a re-analysis of the deposited data

How the results depend on the processing

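Counts of genes called or found were compared over 161 alternative values, of which 140 stayed within 1.5 times the value reported. These include genes higher in females and genes lower in larvae, both 0 in the report and limited by the rule. They stayed at 0 in 22 of 22 and 20 of 22 alternatives. For genes higher in males, 12 of 22 stayed within the range. The 150 genes higher in pupae than eggs stayed within that range in all 23 alternatives. The 8 lower in pupae were 5 (of 227 tested) when only egg and pupal libraries entered the fit. Genes higher in males than females, 9 in the report, numbered 16 with DESeq2 size factors, 3 with library size alone, 26 with adult libraries alone and 30 with the DESeq2 Wald test, beside 17.8%, 12.1%, 20.5% and 20.7% of all genes. Genes higher in larvae than adults, 56 in the report, numbered 19 (6.33%) with library size alone and 97 (32.3%) with the DESeq2 Wald test, beside 7.14% and 17.4% of all genes, and 2 were lower in larvae with library size alone, beside 24.4%. Leaving out 1 library gave 131 to 154 genes higher and 4 to 14 lower in pupae. The shares of all genes were 30.3% to 36.1% and 23.4% to 28.4% in these fits. The same fits gave 0 genes higher in females and 0 to 15 higher in males, beside 10.3% to 14.5% and 8.04% to 16.9%. In larvae, 32 to 77 were higher and 0 to 4 lower, beside 10.7% to 15% and 8.76% to 17.5%. The conditions of the rule were met by 268 to 361 genes when 1 library was left out, by 228 with high means under 2-fold apart and by 232 on TMM-scaled CPM, against 351. The cause of these changes was not tested, other than where fewer libraries or genes entered the fit. The number of members at least 4-fold below in male adult replicate 2 was 132, and 129 to 136 with 0.1 or 2 added before the log or library size alone. It was 169 at 2-fold and 106 at 8-fold, settings chosen after seeing the data. CAH1141795.1 was not tested when only egg and pupal libraries entered the fit.

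Replicate numbers are shared between groups. Correlations across genes between same-numbered samples were weak and positive for pupae and eggs, at 0.03 to 0.09. They were -0.18 to -0.01 between the sexes and -0.27 to 0.06 between larvae and adults. Every pupal and egg sample correlated best with its own number, a hint from the data and not the design, and none did between the sexes. With the replicate block, 148 genes were higher and 7 lower in pupae, beside 34.3% and 24.7% of all genes. In females, 0 were higher and 10 lower than in males, beside 11.3% and 14.7%. In larvae, 44 were higher and 0 lower, beside 11.7% and 10.9%. Low counts in eggs and pupae limit the folds of single genes there.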

Other observations

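Beyond the 300 genes, 251 others were at least 4-fold below in male adult replicate 2. Larvae had the highest mean TPM in 126 of them, female adults in 72, male adults in 38 and eggs or pupae in 15. In 130 of the 251 (51.8%) the lowest of the larval, male and female means was at least 3 times both the egg and the pupal mean. The corresponding shares over all genes are not given here, so nothing is read from these counts. What kept them out was high means 3-fold or more apart in 143 genes, a lowest high mean under 5 TPM in 54, too small a step above eggs or pupae in 45 and the limit on number in 9.

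Of the 300 genes, 57 (19.0%) had another of the 300 next to them in identifier number, against 493 of all 11862 genes (4.16%) that had one of the 300 next to them. These made 31 pairs, of which 9 had both genes in the lower set and 6 both in the near set. Genome positions were not analysed here, so whether such genes are neighbours or copies of each other was not tested. The relative gene length, set to 1 at the median of all genes, had a median of 0.916 over the 300 genes, with quartiles of 0.587 and 1.14, against quartiles of 0.620 and 1.63 over all genes.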
